A study of Saccharomyces cerevisiae with 44 samples.

Results

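The responses of budding yeast to MTX and to AD, both given in SC medium, were set against each other gene by gene as a difference of responses: the log2 change from CM to MTX minus the log2 change from CA to AD. All 6692 features of the count table are members; 6344 had enough reads to be tested, and 8 of the 22 cultures of the series carry the comparison. A positive value means that a gene stood higher in the MTX response than in the AD response, and a negative value that it stood lower. MTX is the usual field abbreviation of methotrexate, an inhibitor of dihydrofolate reductase; the labels give only the abbreviation, and AD is not spelled out in the sources used here. All cultures were wild type Saccharomyces cerevisiae of the W303 background, grown in SC, a synthetic complete medium, at 30 °C to an optical density near 0.3 and then given agent or vehicle up to the time point of the IC50, whose length is not stated. MTX was used at 150 µg/mL and its vehicle CM was 0.1 N NaOH; AD was used at 50 µg/mL and its vehicle CA was 2% acetone. Each group had 2 independent cultures with 2 technical replicates each, which were summed, so that 16 libraries gave 8 cultures. The labels state wild type only; W303 usually carries mutant alleles of ADE2, CAN1, HIS3, LEU2, TRP1 and URA3.

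Tetrahydrofolate carries the carbon units used to close the purine ring and to make thymidylate and methionine, so dihydrofolate reductase feeds nucleotide and methionine synthesis. When deoxynucleotides run short, the Mec1, Rad53 and Dun1 kinases switch on the ribonucleotide reductase genes, the best known readout of replication stress in this yeast. Acetone and NaOH are the vehicles here, and a difference of responses removes each vehicle only as far as agent and vehicle add up on the log2 scale.

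Each of the 16 libraries held between 10.82 and 14.13 M counts. No gene was called between the vehicles CM and CA by edgeR (134 were at an unadjusted p under 0.05, and DESeq2 called 1). The cultures of a group were not equally close to each other: the SD over genes of culture 1 minus culture 2 in log2 CPM, a count scaled to its library's total, was 0.264 in CM and 0.283 in MTX, but 0.515 in CA and 0.471 in AD. Values are CPM of each culture on TMM-scaled libraries, culture 1 first. The standard error (SE) of each log2 difference comes from the fit, and a gene is called at an edgeR adjusted p under 0.05. Nothing in the labels says that a culture number marks a shared day.

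The MTX response was the broader of the 2 responses by number of calls. Against CM, 19.8% of the genes tested were called, with 688 that rose in MTX (10.8%) and 571 that fell (9%). Against CA, 3.14% were called, with 128 that rose in AD (2.02%) and 71 that fell (1.12%), with 1240 at an unadjusted p under 0.05. The difference of responses was called for 526 genes, which is 8.29% of those tested, with 259 higher in the MTX response (4.08%) and 267 lower (4.21%). Of these, 181 of the higher and 75 of the lower genes differed by at least 2-fold. The MTX and AD responses share no culture, and their log2 changes had a Pearson correlation of 0.155 across the 6344 genes, which are not independent replicates. Their SDs over genes were 0.545 for MTX and 0.402 for AD, and 0.625 for the difference. The median gene was at 0.01. The number of genes called in the difference depended on single cultures: it was 149 without MTX culture 2, 210 and 214 without CM culture 1 and 2, 208 without AD culture 2, 251 without CA culture 1 and 708 without CA culture 2. For MTX against CM it was 513 to 739 without 1 of the MTX or CM cultures, and for AD against CA 10 without AD culture 2 and 75 without CA culture 1.

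**Figure D1:**
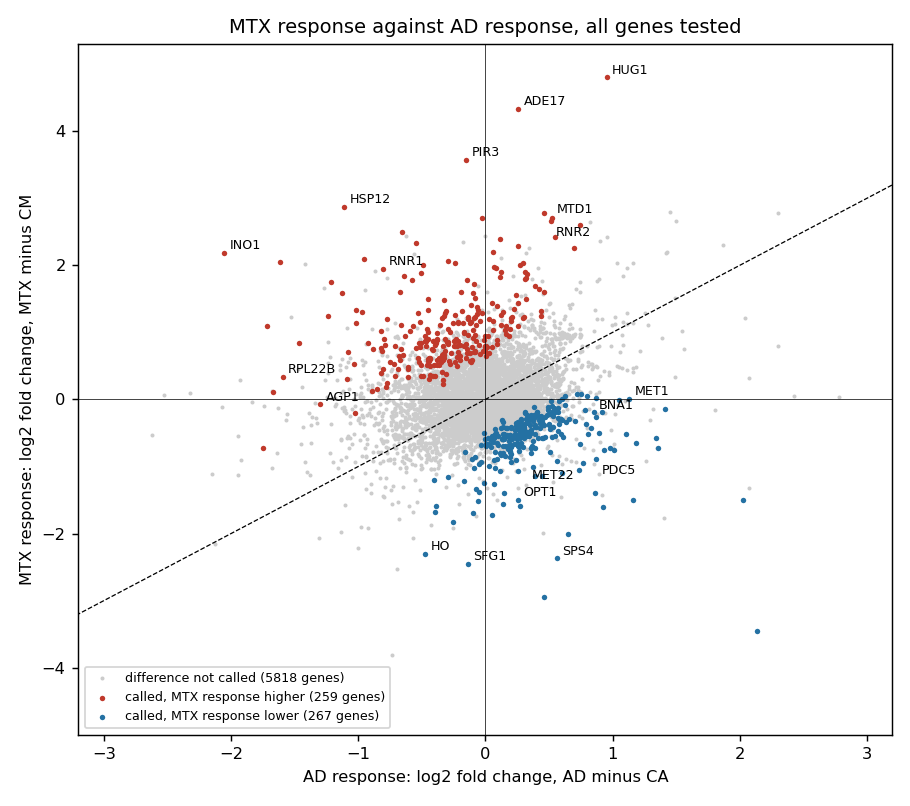
Each point is 1 of the 6344 genes tested, with its log2 change from CA to AD on the horizontal axis and from CM to MTX on the vertical axis; the dashed line marks equal responses and 1 gene lies outside the axes. Red points are the 259 genes called higher and blue points the 267 called lower in the MTX response, and INO1 stands up and to the left with the changes of opposite sign.

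INO1 had the largest difference of responses of the genes named by the rule, because it rose in MTX and fell in AD. INO1 (YJL153C, chromosome X, 134332 to 135933) encodes the enzyme that makes inositol phosphate from glucose phosphate, the first step of inositol synthesis. It read 182.6 and 236.4 CPM in the CM cultures and 995 and 914 CPM in MTX. It read 191.5 and 190.2 CPM in CA and 47.3 and 44.7 CPM in AD. The vehicles stood at like levels, both MTX cultures lay above them and both AD cultures below. The log2 change was 2.19 (SE 0.19) in MTX and -2.05 (SE 0.19) in AD, a difference of 4.24 (SE 0.26; adjusted p = 1.05e-07), and it stayed between 4.10 and 4.44 with any of the 8 cultures left out. The other genes of phospholipid and inositol synthesis did not follow as a group in the difference of responses. With INO1 counted, 2 of 22 were higher and 1 lower in the MTX response (13.6% called, beside 8.29% of all genes). The median difference was 0.20. Counting INO1, 1 rose and 1 fell in MTX, beside 10.8% and 9% of all genes. In AD 3 fell, beside 1.12% of all genes, and none rose. PSD1, a phosphatidylserine decarboxylase, was higher (0.75, SE 0.19) and ITR2, an inositol transporter of the plasma membrane, lower (-0.84, SE 0.15). PSD1 read 248.7 and 267.2 CPM in CM, 340.5 and 320.1 in MTX, 224.5 and 257.7 in CA and 177.8 and 188.3 in AD. Its call was lost without either MTX culture, either CM culture or AD culture 2 (0.71 to 0.82).

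The INO1 promoter is shown because the gene moved in opposite directions under the agents. It is the stretch from 250 bases before to 50 bases after the start codon's first base, from RefSeq's R64 assembly (sacCer3), chrX:135884-136183, minus strand, with the matches to CATGTG on either strand in capitals.
INO1: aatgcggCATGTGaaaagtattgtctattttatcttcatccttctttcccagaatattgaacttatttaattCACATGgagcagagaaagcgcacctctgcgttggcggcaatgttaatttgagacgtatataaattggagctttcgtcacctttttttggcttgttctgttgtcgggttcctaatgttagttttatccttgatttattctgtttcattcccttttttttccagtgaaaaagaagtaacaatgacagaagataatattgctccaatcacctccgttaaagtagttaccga
CATGTG is the core that the activators Ino2 and Ino4 bind. The matches begin at positions -243 and -178 from the start codon. CATGTG was found on either strand in 6.92% of 5980 such promoters and in 12 of 22 promoters of the phospholipid and inositol list (54.5%), most of whose genes were not called. Among promoters of genes called in the difference it was in 19 of 255 that were higher and 14 of 245 that were lower. A match is a description of the sequence only.

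In all, 68 genes were called in both responses, 5.4% of the MTX calls and 34.2% of the AD calls. Over all genes tested, 3.14% were called in AD and 19.8% in MTX. The 68 rest on the 199 AD calls, of which 19 were kept when the 8 cultures were fitted alone. Which of the 68 genes kept theirs is not given here. Of the 68, 29 rose in both, 18 fell in both, 11 rose in MTX and fell in AD and 10 fell in MTX and rose in AD. The genes called in both are described here because they were called in both, not by the naming rule, except INO1, RNR1, HSP150, MET2 and PDC5. Those that rose in MTX and fell in AD were INO1, RNR1, RIB4, GLN1, NAM8, CDC15, MRP4, HSP150, CCW12, MRH1 and YOL107W. RIB4 makes the lumazine precursor of riboflavin. It read 55.6 and 56.5 CPM in CM, 227.9 and 222.9 in MTX, 55.2 and 51.5 in CA, and 40.1 and 36.0 in AD. The difference was 2.50 (SE 0.18; adjusted p = 4.92e-07), and the agents lay on opposite sides of their vehicles in every culture. GLN1, glutamine synthetase, differed by 1.05 (SE 0.15), NAM8, a splicing factor, by 1.63 (SE 0.25), and CDC15, a kinase of mitotic exit, by 1.31 (SE 0.21). The reverse pattern was shown by MET2, PDC5, ASN2, KAP122, SSZ1, TRS33, YIL032C, YOL013W-A, YBR174C and YER138W-A. YBR174C overlaps another feature and YER138W-A has a near-identical copy, so both are uncertain. Counts were low for YBR174C, at 0.04 and 0 CPM in MTX and 0.86 and 1.25 in AD. They were also low for YIL032C, at 0.67 and 0.42 CPM in MTX and 3.96 and 4.71 in AD. ASN2, an asparagine synthetase, read 1540 and 1578 CPM in CM, 1107 and 993 in MTX, 1406 and 1424 in CA, and 1992 and 1857 in AD (difference -1.01, SE 0.16). PDC5, a minor pyruvate decarboxylase, read 39.1 and 44.1 CPM in CM, 25.6 and 19.1 in MTX, 35.9 and 42.0 in CA, and 58.8 and 83.7 in AD (-1.76, SE 0.33).

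**Figure D2:**
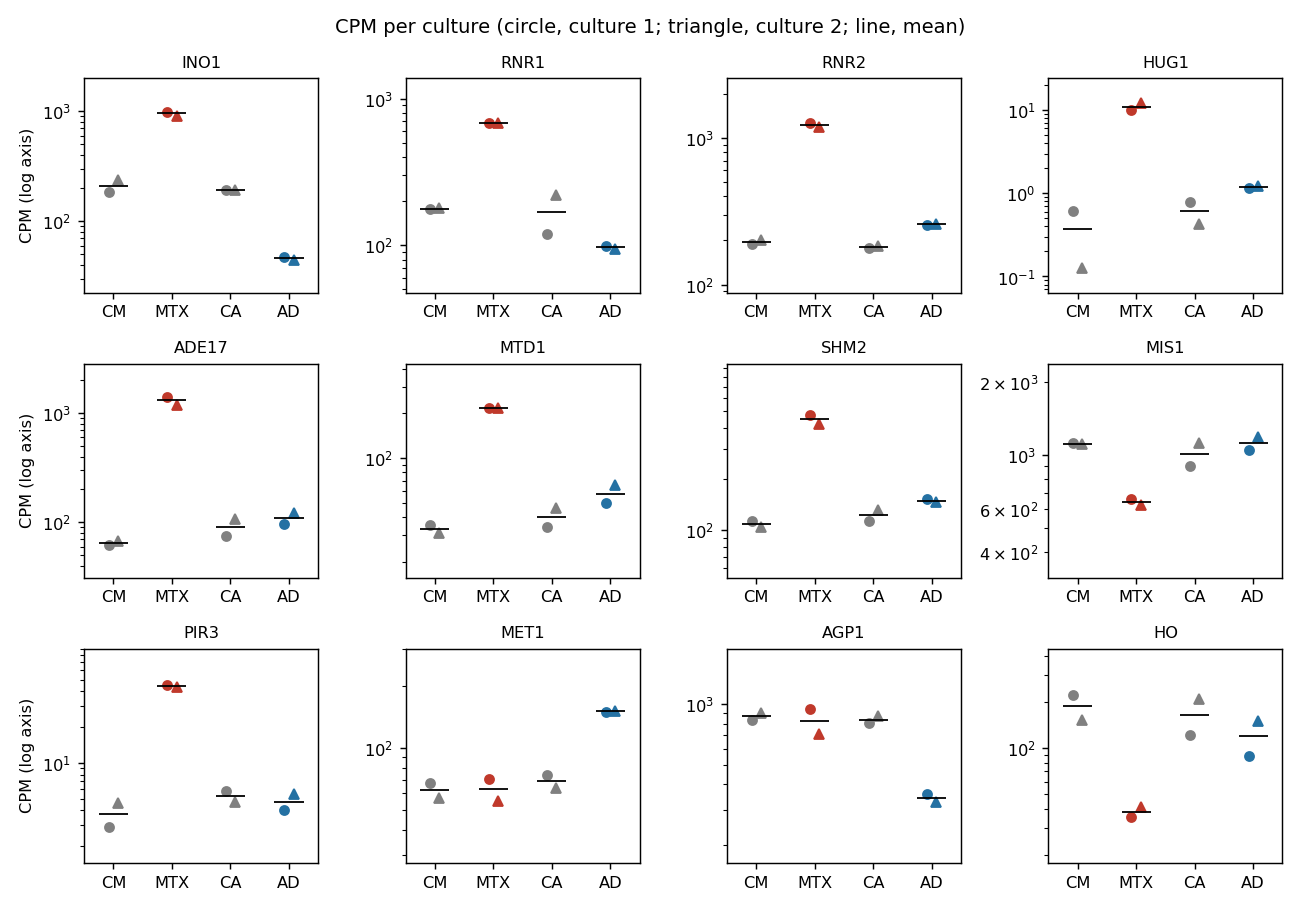
CPM of 12 genes in each culture on a log axis (circle, culture 1; triangle, culture 2; line, mean of the 2 cultures), in the order CM, MTX, CA, AD. INO1 and RNR1 are above vehicle in MTX and below it in AD, MET1 and AGP1 leave their vehicle in AD, and the CA cultures of RNR1 stand apart (118.5 and 219.4 CPM).

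Genes of the DNA damage regulon stood higher in the MTX response: 10 of 22 tested members were called higher and none lower, beside 4.08% and 4.21% of all genes, with a median difference of 0.90 against 0.01 over all genes. In MTX against CM 14 rose, beside 10.8% of all genes, and none fell. In AD against CA none rose and RNR1 fell, beside 1.12% of all genes. RNR1 (YER070W, chromosome V, 298950 to 301616), the main large subunit of ribonucleotide reductase, read 175.9 and 178.6 CPM in CM and 687 and 685 in MTX. In CA it read 118.5 and 219.4 CPM and in AD 98.5 and 95.1. Both AD cultures lay below both CA cultures, but the CA cultures lay farther from each other than CA culture 1 from the AD cultures. The difference of responses was 2.76 (SE 0.27; adjusted p = 3.8e-05), and 3.16 without CA culture 1 and 2.26 without CA culture 2. RNR2, the small subunit (YJL026W, chromosome X, 392404 to 393603), read 187.9 and 202.5 CPM in CM, 1271 and 1194 in MTX, 176.4 and 184.4 in CA, and 255.7 and 259.2 in AD. It rose in MTX by 2.66 and stood at 0.51 in AD, which was not called, a difference of 2.15 (SE 0.25). RNR4, the other small subunit, differed by 1.49 (SE 0.21).

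RNR3 and HUG1, the reporters of the checkpoint most often used, were low without MTX. RNR3, the damage-inducible large subunit, read 9.24 and 12.8 CPM in CM, 68.4 and 64.9 in MTX, 15.3 and 10.6 in CA, and 23.7 and 19.6 in AD. HUG1, a small inhibitor of ribonucleotide reductase, read 0.618 and 0.128 CPM in CM, 9.96 and 12.0 in MTX, 0.793 and 0.428 in CA, and 1.16 and 1.21 in AD. For both genes the AD cultures lay above the CA cultures and far below the MTX cultures. The difference was 1.86 (SE 0.47; adjusted p = 0.0245) for RNR3 and 3.85 (SE 0.96; adjusted p = 0.0222) for HUG1. The call of RNR3 was lost without MTX culture 1 or 2, CM culture 1, AD culture 2 or CA culture 1 (1.61 to 1.91). That of HUG1 was lost without MTX culture 2, CM culture 2, AD culture 2 or CA culture 1 (3.18 to 3.88). DUN1, the kinase that acts on the reductase's inhibitors, differed by 1.54 (SE 0.25), the nuclease gene DIN7 by 1.88 (SE 0.28), PLM2, a putative transcription factor, by 1.69 (SE 0.28) and RAD7 of nucleotide excision repair by 1.08 (SE 0.24). The call of RAD7 was lost without MTX culture 2, CM culture 2 or CA culture 1 (0.95 to 1.06). The repair genes MAG1 (0.14, SE 0.38), RAD16 (0.05, SE 0.29) and RAD2 (0.42, SE 0.31) were not called. The number of members called was 7 without MTX culture 2 or CA culture 1 and 11 without AD culture 1 or CA culture 2.

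**Figure D3:**
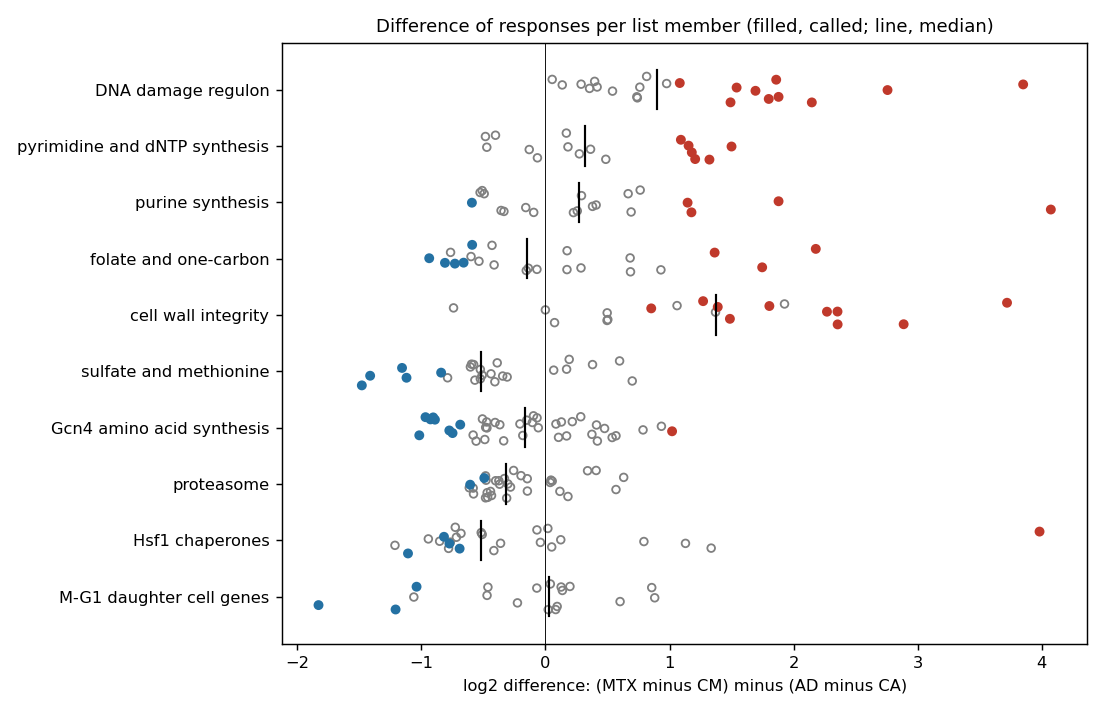
Each circle is a list member at its log2 difference of responses (filled red, called higher; filled blue, called lower; open, not called), and the black line is the list's median. The damage and cell wall lists lie to the right with 10 called members each, and the sulfate list has a median of -0.52.

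Purine synthesis genes stood higher in the MTX response only for part of the pathway. Of 20, 4 were called higher and 1 lower (25% called, beside 8.29% of all genes), with a median difference of 0.27. In MTX 8 rose, beside 10.8% of all genes, and AAH1, adenine deaminase, fell (-0.90). In AD none was called, beside 3.14% of all genes. ADE17 (YMR120C, chromosome XIII, 507502 to 509280) carries out the last steps of IMP synthesis, using formyl tetrahydrofolate. It read 62.5 and 67.1 CPM in CM, 1413 and 1190 in MTX, 75.9 and 107 in CA, and 97.5 and 121.1 in AD. The MTX cultures lay far above every other culture, and the difference was 4.07 (SE 0.73; adjusted p = 0.00524). Its isozyme ADE16 went the other way: it read 622 and 687 CPM in CM, 592 and 560 in MTX, 716 and 593 in CA, and 922 and 815 in AD, a difference of -0.59 (SE 0.17; adjusted p = 0.0371). ADE1, which makes SAICAR, differed by 1.88 (SE 0.33), ADE57, which acts early in the pathway, by 1.18 (SE 0.21) and ADE13, adenylosuccinate lyase, by 1.15 (SE 0.24). The phosphoribosyl pyrophosphate synthetase genes PRS1 to PRS5 lay between -0.53 and -0.16 and were not called. The 4 higher calls held with each culture left out; that of ADE16 was kept only without CA culture 1 (-0.45 to -0.67 over the others). In the list of 7 GTP synthesis genes GUK1, guanylate kinase, was lower (-0.66, SE 0.20; adjusted p = 0.0487), a call kept only without CA culture 2 (-0.53 to -0.77 over the others).

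The ADE17 promoter is shown for the largest difference of the pathway (R64, chrXIII:509231-509530, minus strand, with the match to TGACTC in capitals).
ADE17: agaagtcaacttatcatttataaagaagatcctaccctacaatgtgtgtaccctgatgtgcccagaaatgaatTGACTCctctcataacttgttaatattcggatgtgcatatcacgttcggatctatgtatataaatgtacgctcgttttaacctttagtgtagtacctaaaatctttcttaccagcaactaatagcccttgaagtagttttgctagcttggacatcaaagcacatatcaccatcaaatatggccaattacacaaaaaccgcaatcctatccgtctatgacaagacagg
The match begins at -177. TGACTC, searched on both strands, is bound by Bas1 and by Gcn4. It was in 7.99% of all promoters, in 7 of 20 of the purine list (ADE1, ADE2, ADE57, ADE8, ADE12, ADE13 and ADE17) and in 23 of 40 of the Gcn4 amino acid list. It was in 19 of 255 promoters of genes called higher and 32 of 245 called lower.

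Folate and one-carbon genes moved in both directions. Of 22, 3 were higher and 5 lower (36.4% called, beside 8.29% of all genes), with a median difference of -0.15. Neither DFR1, dihydrofolate reductase, nor CDC21, thymidylate synthase, was called. DFR1 read 13.3 and 9.55 CPM in CM, 9.49 and 11.05 in MTX, 6.38 and 10.4 in CA, and 6.76 and 9.07 in AD, a difference of -0.07 (SE 0.37), and each agent's cultures overlapped those of its vehicle. CDC21 read 12.7 and 10.1 CPM in CM, 24.6 and 25.6 in MTX, 9.75 and 13.0 in CA, and 13.5 and 17.8 in AD. It rose in MTX (1.14, SE 0.19) and stood at 0.46 (SE 0.19) in AD, a difference of 0.68 (SE 0.26; adjusted p = 0.113). Of the genes called higher, MTD1, the NAD-dependent methylene tetrahydrofolate dehydrogenase, read 35.3 and 31.1 CPM in CM, 216 and 215 in MTX, 34.2 and 45.8 in CA, and 49.4 and 65.5 in AD (difference 2.18, SE 0.32; adjusted p = 0.00104). SHM2, cytosolic serine hydroxymethyltransferase, differed by 1.75 (SE 0.47) and MET13, methylene tetrahydrofolate reductase, by 1.36 (SE 0.22). Genes called lower included the mitochondrial enzymes MIS1 and SHM1 and enzymes of new folate synthesis. MIS1, the mitochondrial C1-tetrahydrofolate synthase, read 1117 and 1115 CPM in CM, 660 and 627 in MTX, 907 and 1120 in CA, and 1046 and 1190 in AD (difference -0.94, SE 0.18; adjusted p = 0.00526). SHM1 was at -0.66 (SE 0.18), FOL2, GTP cyclohydrolase, at -0.59 (SE 0.15), FOL3, dihydrofolate synthase, at -0.81 (SE 0.17) and ABZ1 of p-aminobenzoate synthesis at -0.73 (SE 0.15). The call of SHM2 was lost without each of the 8 cultures in turn (1.64 to 1.88), and those of SHM1, FOL2 and FOL3 without 4 to 6 of them, MTX culture 2 and CA culture 1 among them (-0.52 to -0.77). ABZ1 was lost without MTX culture 2 (-0.68), where 2 members were higher and 1 lower.

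Part of the pyrimidine pathway stood higher in the MTX response. In the list of pyrimidine and deoxynucleotide synthesis 6 of 16 were called higher and none lower, with a median of 0.32. That is 37.5% called, beside 8.29% of all genes. URA2, which starts the pathway, read 1583 and 1726 CPM in CM, 5060 and 4704 in MTX, 1330 and 1580 in CA, and 1625 and 1811 in AD. The MTX cultures lay well above all others, and the difference was 1.32 (SE 0.23; adjusted p = 0.00271). URA4, dihydroorotase, differed by 1.18 (SE 0.16), URA1, dihydroorotate dehydrogenase, by 1.15 (SE 0.23), URA3, orotidine phosphate decarboxylase, by 1.21 (SE 0.32), URA10, an orotate phosphoribosyltransferase, by 1.499 (SE 0.34) and URA6, uridylate kinase, by 1.09 (SE 0.31). URA5, the main orotate phosphoribosyltransferase, was at -0.47 (SE 0.20) and not called. DUT1, DCD1 and CDC8 of thymidylate and dTTP metabolism lay between -0.40 and 0.27 and were not called. The call of URA3 was lost without MTX culture 2, CM culture 2, AD culture 1 or CA culture 1 (1.05 to 1.10), that of URA10 without CM culture 1, AD culture 2 or CA culture 1 (1.01 to 1.44), and that of URA6 without every culture but CA culture 1 (as low as 0.85). The list had 3 calls when the 8 cultures were fitted alone and 4 without MTX culture 2, without either CM or AD culture, or without CA culture 1. URA3 was also the one gene called of the 6 in the list of alleles that W303 usually carries, 16.7% beside 8.29% of all genes.

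Cell wall genes formed the list with the highest median difference, 1.37, with 10 of 19 members higher and none lower. The share called was 52.6%, beside 8.29% of all genes. In MTX 14 rose, beside 10.8% of all genes, and none fell. In AD HSP150 fell, beside 1.12% of all genes, and none rose. These genes are targets of the Slt2 kinase pathway or encode mannoproteins of the wall. PIR3 (YKL163W, chromosome XI, 144401 to 145378) read 2.91 and 4.60 CPM in CM, 45.3 and 43.5 in MTX, 5.87 and 4.67 in CA, and 4.00 and 5.49 in AD. AD and CA overlapped; the MTX change was 3.57 and the difference 3.72 (SE 0.47; adjusted p = 0.000339). HSP150, of the same protein family, read 67.1 and 78.8 CPM in CM, 177.5 and 191.1 in MTX, 92.7 and 68.1 in CA, and 46.5 and 33.0 in AD, a difference of 2.35 (SE 0.27; adjusted p = 0.00012). CWP1 differed by 2.89 (SE 0.39), SED1 by 2.35 (SE 0.27), GSC2, the inducible glucan synthase, by 1.80 (SE 0.40), PRM5 by 1.49 (SE 0.27), CRH1, which links chitin to glucan, by 1.39 (SE 0.19) and BGL2, a glucanase, by 1.27 (SE 0.25). SLT2 itself (0.50, SE 0.31) and the factor RLM1 (-0.74, SE 0.36) were not called. The number of members called ranged from 7 (without MTX culture 2, CM culture 1 or AD culture 2) to 11, and the list's median from 1.173 to 1.502. GSC2 was lost without MTX culture 2, CM culture 1 or AD culture 2 (1.66 to 1.79). Of the called members not given above, KTR2 was kept only without CA culture 1 (0.74 to 1.02 over the others). SRL3 was kept only without AD culture 1 or CA culture 2 (1.31 to 2.42 over the others).

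Genes of sulfate assimilation and methionine synthesis stood lower in the MTX response, and more of them rose in AD than in MTX. Of 24, 5 were lower and none higher (20.8% called, beside 8.29% of all genes), with a median difference of -0.52. In AD 9 rose, beside 2.02% of all genes, and none fell. In MTX 3 rose, beside 10.8% of all genes, and 2 fell, beside 9%. MET1, of siroheme synthesis (YKR069W, chromosome XI, 571612 to 573393), read 67.4 and 57.0 CPM in CM, 70.2 and 55.1 in MTX, 73.5 and 63.4 in CA, and 148.6 and 151.1 in AD. Only the AD cultures stood apart, and the difference was -1.12 (SE 0.25; adjusted p = 0.0109), a call lost without MTX culture 2 (-0.94) or CM culture 1 (-0.96). MET22, the phosphatase that clears the nucleotide by-product of sulfate reduction, read 283.7 and 296.7 CPM in CM, 167.4 and 139.3 in MTX, 251.7 and 281.5 in CA, and 378 and 408 in AD. It fell in MTX by 0.92 and stood at 0.56 in AD, which missed the threshold (adjusted p = 0.0517), a difference of -1.48 (SE 0.21; adjusted p = 0.00101). MET2, homoserine acetyltransferase, fell in MTX (-0.67) and rose in AD (0.74), a difference of -1.41 (SE 0.26). MMP1, a permease for S-methylmethionine, was at -1.16 (SE 0.31) and MET16, which reduces activated sulfate, at -0.84 (SE 0.25; adjusted p = 0.0465). MET3, ATP sulfurylase, rose in both, by 1.02 in MTX and 1.54 in AD, and its difference of -0.53 (SE 0.34) was not called. MMP1 was lost without MTX culture 2, either CM culture, AD culture 1 or CA culture 2 (-0.91 to -1.16), and MET16 without every culture but CM culture 2 and AD culture 1 (-0.59 to -0.87). Only 2 members were called without MTX culture 2 or CM culture 1, and 1 when the 8 cultures were fitted alone.

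The MET16 promoter is shown for CACGTG, the site of Cbf1, which recruits the methionine regulator Met4 (R64, chrXVI:877583-877882, minus strand, match in capitals).
MET16: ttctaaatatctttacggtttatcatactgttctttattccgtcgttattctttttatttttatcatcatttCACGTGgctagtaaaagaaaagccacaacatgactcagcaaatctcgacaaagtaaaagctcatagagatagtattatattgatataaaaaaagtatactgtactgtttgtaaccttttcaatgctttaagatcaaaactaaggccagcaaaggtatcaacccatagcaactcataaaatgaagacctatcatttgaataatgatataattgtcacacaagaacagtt
The match begins at -178. CACGTG reads the same on both strands; it was in 2.91% of all promoters and in 8 of 25 of the sulfate and methionine list (CYS3, MET8, MET10, MET14, MET16, MET22, MET28 and MET30). It was in 14 of 255 promoters of genes called higher and 9 of 245 called lower.

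Amino acid genes of the Gcn4 list were mixed: 8 of 40 lower, 1 higher (22.5% called, beside 8.29% of all genes), median -0.17. GCN4 itself, the activator gene, was the one called higher. It read 150.3 and 179 CPM in CM, 282.2 and 298 in MTX, 165.2 and 162.4 in CA, and 146.5 and 138.2 in AD (difference 1.02, SE 0.23; adjusted p = 0.0131), and it was lost without MTX culture 2, CM culture 1 or AD culture 2 (0.93 to 1.00). Of the lower genes, TRP3 of tryptophan synthesis read 347.9 and 358.5 CPM in CM, 300.5 and 274.5 in MTX, 308.1 and 323.6 in CA, and 474.4 and 479.3 in AD (-0.89, SE 0.16; adjusted p = 0.00335). HOM2, which serves methionine and threonine, was at -0.97 (SE 0.20) and LEU9, an isopropylmalate synthase, at -1.02 (SE 0.23). In LEU9 it was MTX that fell, by 0.99, while AD stood at 0.03. The calls of HOM2 (-0.81) and LEU9 (-0.88) were lost without MTX culture 2, that of LEU9 also without CM culture 2, AD culture 2 or CA culture 1 (-0.95 to -0.78). Without MTX culture 2, only 1 member of the list was called; the lower calls were 3 without CM culture 1 and 2 without CM culture 2, AD culture 2 or CA culture 1.

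Permeases for amino acids, peptides and ammonium differed gene by gene. Of 20, 1 was higher and 4 lower (25% called, beside 8.29% of all genes), with a median of 0.06. In MTX 10 fell, beside 9% of all genes, and in AD 5 fell, beside 1.12%, and none rose in either. AGP1, a permease for many amino acids, read 837 and 905 CPM in CM, 944 and 713 in MTX, 809 and 871 in CA, and 358 and 326 in AD. Only AD fell, and the difference was 1.22 (SE 0.23; adjusted p = 0.00451). OPT1, a transporter of peptides and glutathione, read 179.3 and 182.0 CPM in CM, 71.1 and 56.8 in MTX, 146.3 and 161.8 in CA, and 176.6 and 191.7 in AD. Here only MTX fell (difference -1.76, SE 0.29; adjusted p = 0.00211). The dipeptide transporter PTR2 was at -1.28 (SE 0.25), the ammonium permease MEP1 at -0.86 (SE 0.24) and the lysine permease LYP1 at -0.72 (SE 0.19). The call of MEP1 was kept only without AD culture 2 (-0.68 to -0.96 over the others) and that of LYP1 only without AD culture 1 or CA culture 2 (-0.60 to -0.77 over the others). The related MEP2 fell in both responses, by 1.02 in MTX and by 1.68 in AD, and its difference (0.66, SE 0.40) was not called. In NAD synthesis 1 of 12 was higher (BNA3, 0.97, SE 0.28) and 3 were lower, 33.3% called beside 8.29% of all genes. BNA1, of the pathway from tryptophan, read 138.6 and 144.3 CPM in CM, 128.8 and 118.5 in MTX, 133.4 and 135.2 in CA, and 246 and 238.7 in AD (-1.05, SE 0.21). BNA7 was at -0.93 (SE 0.25) and NMA2 at -0.72 (SE 0.20). Their calls were less firm: BNA1 was lost without MTX culture 2 (-0.97), BNA7 without MTX culture 2, either CM culture, AD culture 2 or CA culture 1 (-0.66 to -0.95), BNA3 without either MTX culture, CM culture 2, AD culture 2 or CA culture 1 (0.76 to 1.13) and NMA2 without each of the 8 (-0.64 to -0.79).

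The proteasome list had a median of -0.32 but only 2 of 32 called members, both lower, a share near that of all genes. In AD 8 rose, beside 2.02% of all genes, and RPN4, the activator of the set, fell (-0.68). In MTX 6 rose, beside 10.8% of all genes. PRE2, a catalytic subunit, read 414.7 and 395.7 CPM in CM, 393.7 and 354.3 in MTX, 390.7 and 362 in CA, and 525.4 and 533 in AD, a difference of -0.61 (SE 0.14; adjusted p = 0.0161). RPN3, a subunit of the lid, was at -0.49 (SE 0.15). The call of PRE2 was lost without MTX culture 2, CM culture 1 or AD culture 2 (-0.52 to -0.59), and that of RPN3 without every culture but MTX culture 1 (-0.36 to -0.53). GGTGGCAAA, the element bound by Rpn4, was in 27 of 32 promoters of the list and in 1.19% of all promoters on either strand. It was in 10 of 245 promoters of genes called lower and in 0 of 255 called higher.

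Chaperone genes of the Hsf1 list were lower in 4 of 25 and higher in 1, with a median of -0.52. This is 20% called, beside 8.29% of all genes. CPR6, a cyclophilin that binds Hsp90, read 98.5 and 86.4 CPM in CM, 75.6 and 86.6 in MTX, 82.0 and 76.5 in CA, and 147.9 and 151.8 in AD (-1.11, SE 0.19; adjusted p = 0.00247). HSC82, the constitutive Hsp90, read 2944 and 2975 CPM in CM, 2211 and 2035 in MTX, 2779 and 2693 in CA, and 3457 and 3463 in AD (-0.82, SE 0.16). SSE1, of the Hsp110 family, was at -0.69 (SE 0.15) and the Hsp90 activator HCH1 at -0.77 (SE 0.17), both lost without MTX culture 2, CM culture 1, AD culture 2 or CA culture 1 (-0.56 to -0.63 and -0.62 to -0.75). The one member called higher, HSP12, is a small membrane protein also under Msn2 and Msn4, and is described below. Oxidative stress genes were called higher in 3 of 25 and lower in 1 (16%, beside 8.29% of all genes), with a median of 0.01. GTT1, a glutathione transferase, read 36.7 and 37.1 CPM in CM, 171.3 and 137.3 in MTX, 49.6 and 33.4 in CA, and 40.2 and 27.5 in AD (2.36, SE 0.42; adjusted p = 0.0036). The peroxiredoxin AHP1 was at 1.36 (SE 0.27), the mitochondrial superoxide dismutase SOD2 at 1.13 (SE 0.26; lost without MTX culture 2, either CM culture, AD culture 2 or CA culture 1, 1.01 to 1.15), and OYE2, an NADPH oxidoreductase, at -0.72 (SE 0.14; lost without MTX culture 2, -0.62). Of 25 ergosterol genes ERG27 (-0.78, SE 0.18) and ERG12, mevalonate kinase (-0.64, SE 0.16), were lower, a share of 8% that is near the 8.29% of all genes, with a list median of -0.01. Both were lost without MTX culture 2 (-0.71 and -0.55), CM culture 2 (-0.73 and -0.63) or CA culture 1 (-0.69 and -0.58), ERG27 also without AD culture 2 (-0.76) and ERG12 also without CM culture 1 (-0.62) or AD culture 1 (-0.53). No gene of 13 in multidrug transport was called, and the list's median difference was 0.05. The pumps PDR5 and SNQ2 stood at 0.71 (SE 0.26, adjusted p = 0.102) and 0.63 (SE 0.24, adjusted p = 0.112).

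**Figure D4:**
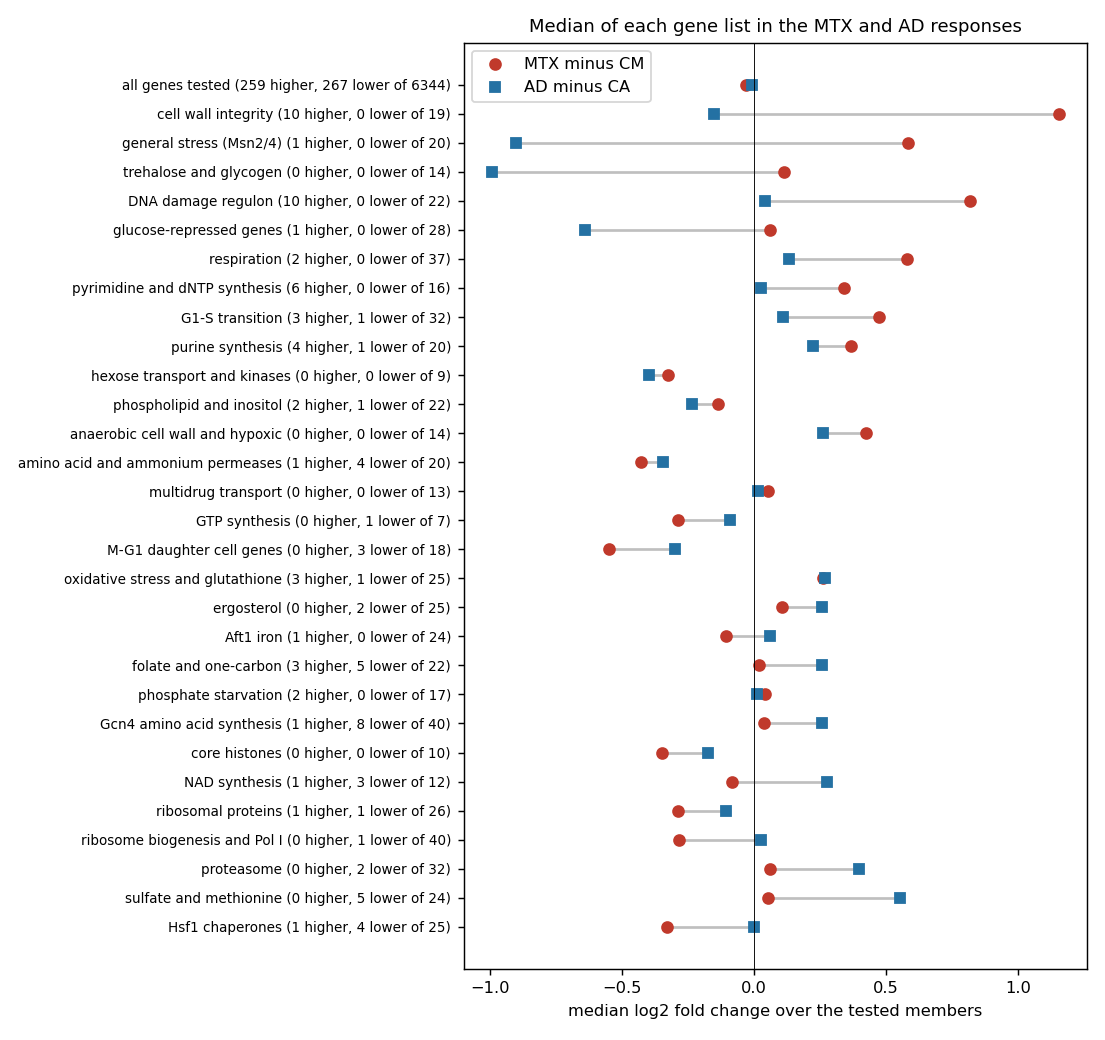
Median log2 change of the tested members of each list drawn, in MTX against CM (red circle) and in AD against CA (blue square). The numbers called higher and lower in the difference stand beside each name, and a grey line joins the medians. A row for all genes tested is included. The lists of growth regulators, a-specific genes, alpha-specific genes and W303 alleles are not drawn. The medians of cell wall and damage genes lie far from 0 in MTX, those of sulfate and proteasome genes in AD, and the stress and trehalose lists have AD medians of -0.90 and -0.99.

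In the G1-S list of replication and cell cycle genes, 3 of 32 were higher and 1 lower, with a median of 0.29. The share called was 12.5%, beside 8.29% of all genes. In MTX 11 rose, beside 10.8% of all genes, and in AD 2 rose, beside 2.02%. RFA3, the small subunit of replication protein A, read 19.97 and 22.5 CPM in CM, 58.3 and 57.0 in MTX, 18.7 and 21.7 in CA, and 24.2 and 24.1 in AD (1.19, SE 0.23; adjusted p = 0.00604). The larger subunits RFA1 (-0.04, SE 0.17) and RFA2 (0.09, SE 0.19) rose in both responses and were not called in the difference. The cohesin genes SMC1 (1.15, SE 0.25; lost without MTX culture 2, 0.92, or CM culture 2, 0.98) and IRR1 (0.90, SE 0.19; lost without CM culture 2, 0.80) were higher, and PRI1 of primase was lower (-0.89, SE 0.19; lost without MTX culture 2, -0.75). ACGCGT, the motif bound by the G1-S regulator MBF, reads the same on both strands and was in 17 of 32 promoters of the G1-S list and in 3.08% of all promoters. It was in 14 of 255 promoters of genes called higher and in 2 of 245 of genes called lower. In the list of M-G1 genes, used as cells leave mitosis, 3 of 18 were lower and none higher. Its share called was 16.7%, beside 8.29% of all genes, and its median was 0.03. In MTX 9 of the 18 fell, where 9% of all genes did, and the list's median was -0.55. In AD 2 fell, beside 1.12% of all genes, with a median of -0.30. None rose in either. HO, the mating-type endonuclease, read 222.7 and 152.9 CPM in CM, 35.3 and 41.0 in MTX, 121.8 and 207.1 in CA, and 88.5 and 148.8 in AD. The AD and CA cultures overlapped, and the difference was -1.83 (SE 0.39; adjusted p = 0.00931), lost without CM culture 1 (-1.50) or AD culture 2 (-1.40). DSE1 (-1.21, SE 0.33) and DSE4 (-1.04, SE 0.29), genes of daughter cell separation, kept their calls only without MTX culture 1 and CA culture 2, respectively (-1.04 to -1.35 and -0.81 to -1.08 over the others). None of the 3 was called without CM culture 1 or AD culture 2. SCW11 and DSE2 of the same list fell in both responses. Histone genes had no call among 10: the linker histone HHO1 was at 0.75 (SE 0.29; adjusted p = 0.119) and HTA2 at -0.52 (SE 0.26; adjusted p = 0.22).

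Stress and storage carbohydrate genes had high medians in the difference but few calls, and their values moved with single CA and AD cultures. In the general stress list, targets of Msn2 and Msn4, the median difference was 1.14, with medians of 0.58 in MTX and -0.90 in AD, and 1 of 20 was called; the count was 5 without AD culture 1 and 6 without CA culture 2. In trehalose and glycogen metabolism it was 0.97 with 0 of 14 called, and in glucose-repressed genes 0.58 with 1 of 28; without CA culture 2 the counts were 3 and 6. Culture 1 stood above culture 2 by a median log2 of 1.81 in CA and 1.22 in AD for the stress list, against 0.29 in MTX and -0.11 in CM. For trehalose and glycogen the same medians were 1.83 in CA, 1.39 in AD, 0.42 in MTX and -0.22 in CM. The shares called in the stress and glucose-repressed lists, 5% and 3.57%, were below the 8.29% of all genes. Without CA culture 1 the stress median was 0.28 and the trehalose median -0.23; without AD culture 1 they were 2.30 and 2.13. The glucose-repressed median went from 0.01 without CA culture 1 to 0.99 without CA culture 2. The part of these culture differences in the list values was not tested. For the damage list the largest such culture difference was 0.17.

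HSP12, the one stress gene called, read 72.3 and 92.3 CPM in CM, 600 and 602 in MTX, 222.6 and 69.6 in CA, and 77.8 and 57.3 in AD. The MTX cultures lay above all others, and CA culture 1 stood apart from CA culture 2. The difference was 3.98 (SE 0.85; adjusted p = 0.0123), and 2.94 without CA culture 1; the call was lost there and without CM culture 1, CM culture 2 or AD culture 2 (3.78 to 4.17). MDH2, the cytosolic malate dehydrogenase of gluconeogenesis, read 91.5 and 102.3 CPM in CM, 331.9 and 319.2 in MTX, 104.5 and 66.2 in CA, and 48.6 and 24.9 in AD. Its call held with each culture left out (2.96, SE 0.49; 2.57 to 3.56). TDH1, a glyceraldehyde phosphate dehydrogenase, differed by 3.16 (SE 0.56) and CRG1, a methyltransferase gene, by 2.71 (SE 0.53), both held as well. STF1, a regulator of the mitochondrial ATPase, was at 3.04 (SE 0.78) and held only without AD culture 1 or CA culture 2, with 1.64 without CA culture 1. The trehalose and glycogen genes with the smallest p were GAC1 (1.24, SE 0.45; adjusted p = 0.0998) and NTH1 (0.98, SE 0.40; adjusted p = 0.14). Hexose transporter and kinase genes had no call among 9, with HXK2 at -0.41 (SE 0.23; adjusted p = 0.275) and MTH1 at 0.58 (SE 0.39; adjusted p = 0.378).

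**Figure D5:**
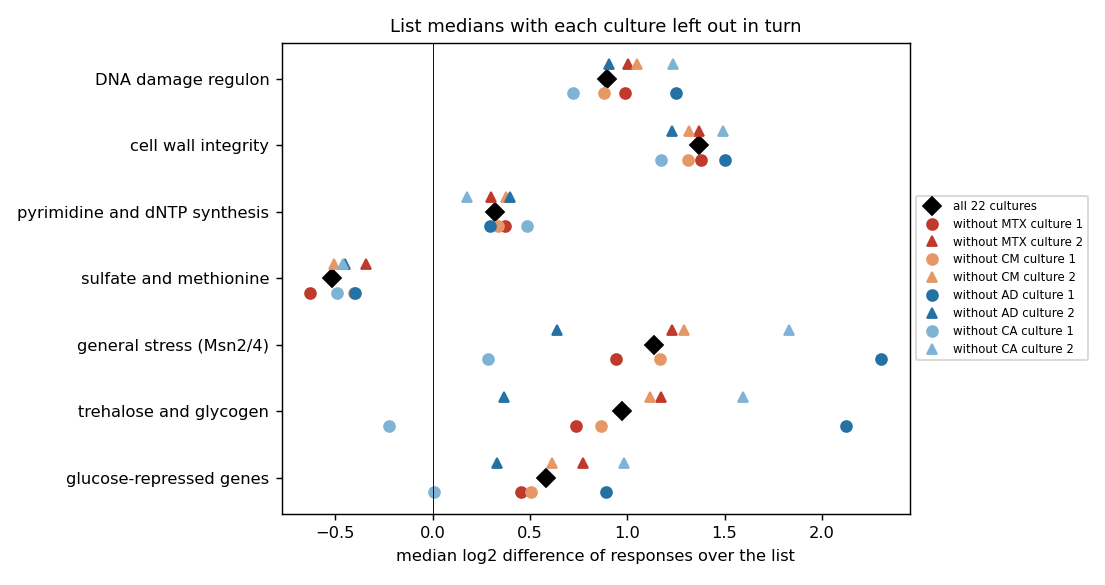
Median log2 difference of responses of 7 lists with all cultures (black diamond) and with 1 culture left out (colour, group; circle, culture 1 left out; triangle, culture 2 left out). The damage and cell wall medians stay at 0.719 or above throughout, and the trehalose median runs from -0.23 without CA culture 1 to 2.13 without AD culture 1.

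Respiratory chain genes had a median of 0.42 and 2 of 37 called, both higher, a share of 5.41% beside 8.29% over all genes. SDH4, a membrane anchor of succinate dehydrogenase, read 44.9 and 45.6 CPM in CM, 121.5 and 119.2 in MTX, 55.2 and 43.8 in CA, and 53.1 and 38.3 in AD (1.53, SE 0.41; adjusted p = 0.0302). The other anchor, SDH3, was at 1.31 (SE 0.36). In each case the MTX cultures lay above all others, but both calls held only without AD culture 1 or CA culture 2 (1.31 to 1.55 and 1.21 to 1.36 over the other cultures). In the phosphate list 2 of 17 were higher and none lower, 11.8% called beside 8.29% of all genes. The median difference of that list was -0.15. PHM8, a nucleotide phosphatase, read 43.5 and 51.3 CPM in CM, 186 and 163.7 in MTX, 69.6 and 36.0 in CA, and 43.3 and 30.8 in AD (2.39, SE 0.37; adjusted p = 0.00164). SPL2, an inhibitor of phosphate uptake, was under 3 CPM in every culture (1.25, SE 0.35), a call kept only without AD culture 2. In the Aft1 iron list SMF3, a vacuolar iron transporter, was the one call of 24 (0.79, SE 0.21), lost without MTX culture 1 or 2, CM culture 1, AD culture 2 or CA culture 1 (0.64 to 0.91). The iron list's share called, 4.17%, was below the 8.29% of all genes, and its median difference was -0.14. The hypoxic and anaerobic list had a median difference of 0.12, with medians of 0.42 in MTX and 0.26 in AD. No hypoxic or anaerobic gene of 14 was called: AAC3 was at -1.19 (SE 0.51; adjusted p = 0.152) and TIR2 at -1.59 (SE 0.69; adjusted p = 0.16).

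Among growth regulators 3 of 9 were higher and none lower (33.3% called, beside 8.29% of all genes). They were BCY1, the regulatory subunit of protein kinase A (0.90, SE 0.22), and STB3 (1.35, SE 0.35) and DOT6 (0.97, SE 0.26), which bind promoters of ribosome biogenesis genes. BCY1 read 80.7 and 92.0 CPM in CM, 147.1 and 151.2 in MTX, 104.4 and 82.7 in CA, and 94.0 and 79.6 in AD. None of the 3 was called without MTX culture 2 (0.89, 1.10 and 0.78), AD culture 2 or CA culture 1. Ribosome biogenesis had a median of -0.31 with 1 of 40 lower, RPA190, the large subunit of RNA polymerase I (-0.77, SE 0.21), held only without AD culture 1 or CA culture 2 (-0.58 to -0.80 over the others). Ribosomal protein genes had a median of -0.24, with RPL22B higher and RPL22A lower. The shares called were 2.5% and 7.69% in these lists, below the 8.29% of all genes. RPL22B read 41.1 and 48.0 CPM in CM, 58.2 and 54.8 in MTX, 38.3 and 43.7 in CA, and 15.6 and 11.6 in AD. It fell in AD (-1.59, SE 0.21) and stood at 0.34 (SE 0.21) in MTX, a difference of 1.94 (SE 0.30; adjusted p = 0.00155). RPL22A (-1.32, SE 0.39; adjusted p = 0.0472) overlaps another feature and so is uncertain, and its call was kept only without AD culture 1 or CA culture 2 (-0.82 to -1.42 over the others).

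Mating genes were read to check the strain. STE2, the receptor made by cells of mating type a, read between 244.5 and 362.3 CPM over the 8 cultures, and MF(ALPHA)1, the pheromone of the other type, between 0.517 and 5.61 CPM. MF(ALPHA)1 read 0.909 and 1.75 CPM in CM, 5.21 and 5.61 in MTX, 0.832 and 1.21 in CA, and 0.517 and 1.21 in AD. It was the one call of 4 alpha-specific genes (2.28, SE 0.66; adjusted p = 0.043), kept only without CM culture 2 or AD culture 2 (1.83 to 2.55 over the others). STE6, the exporter of the a pheromone, was the one call of 7 a-specific genes (-0.97, SE 0.20), lost without MTX culture 2 (-0.90). The shares called were 25% of the alpha-specific and 14.3% of the a-specific list, beside 8.29% of all genes. The median differences of these lists were -0.20 and -0.15.

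The remaining genes with the largest negative differences came from several functions. SPS4, a sporulation gene (YOR313C, chromosome XV, 901858 to 902874), read 25.4 and 20.3 CPM in CM, 4.43 and 4.44 in MTX, 22.7 and 23.4 in CA, and 29.8 and 38.3 in AD (-2.93, SE 0.39; adjusted p = 0.000592). SFG1, a regulator of pseudohyphal growth that lies close by at 904760 to 905800, read 81.4 and 79.4 CPM in CM, 14.0 and 15.4 in MTX, 41.2 and 67.2 in CA, and 47.8 and 50.8 in AD (-2.31, SE 0.29; adjusted p = 0.000326). In both genes the MTX cultures lay below all others and the AD change was not called. SRD1 (-1.71, SE 0.31), ATF2, an alcohol acetyltransferase (-1.70, SE 0.37), and NDJ1, a meiotic telomere protein (-1.62, SE 0.38), were the others. ATF2 was lost without MTX culture 2 (-1.55) or AD culture 2 (-1.35), and NDJ1 without MTX culture 2, CM culture 1, AD culture 2 or CA culture 1 (-1.28 to -1.55). For NDJ1 it was the AD response that was called (1.11, SE 0.26), and MTX stood at -0.51 (SE 0.27).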

How the data were processed

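RNA was sequenced from W303 cultures in SC. The authors' deposited values are raw counts per feature of sacCer3, made with featureCounts 1.6.0, per the file headers, without a strand setting and without counting reads that overlap several features; Bowtie2 is in the submitters' processing notes, with a version not given in the sources used here. Alignment names in the headers hold the words mskDup and non-redundant. The count columns were named by title; for 1 CM library the description gives another technical replicate than the title, which was followed. Counts of technical replicates were summed per culture. Genes were filtered with filterByExpr (minimum count 10, total 15) of edgeR 4.0.16 in R 4.3.3, scaled by TMM and fitted with 1 mean per group to the 22 cultures of the series. The robust quasi-likelihood F test gave the p of every contrast, adjusted by Benjamini-Hochberg over 6344 genes (threshold 0.05). SE is the size of the log2 value over the root of F. P-values rest on 2 cultures per group and a spread shared over groups (common coefficient 0.156, residual degrees of freedom 11).

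Named genes were the 10 largest positive and negative differences (called, mean at least 10 CPM, standard name, no near-identical copy, responses of the cultures not overlapping), up to 3 called members of each of 33 lists by smallest p, up to 2 of lists with no call, and RNR1, RNR3, HUG1, DFR1 and CDC21. Further list members and genes called in both responses are named for their roles, after their values were seen. All 526 called genes had culture responses that did not overlap. Members and lists were chosen with earlier results of these data known. Features with a near-identical copy (BLAST 2.17.0, 95% identity over 30% of length; 10 of the called) or overlapping another over 30% of its length on either strand (27 of the called) are uncertain. Coordinates are those of the deposited tables; 6000 of 6008 features matched to RefSeq R64 had the same ones, and promoters were read from that genome. In simulated counts the test called 34.3% of 67 genes given a 2-fold and 92.4% of 66 given a 4-fold difference of responses, none of 67 given 1.5-fold, and 4 of 6138 unchanged genes. The simulation drew independent cultures with the same spread of a gene in every group. The real CA and AD cultures spread more (0.515 and 0.471) than those of CM and MTX (0.264 and 0.283). Their culture differences also correlated, at 0.709 between CA and AD, so the simulated rates may not hold here. Alternatives were DESeq2 1.42.0, RLE scaling, no filter, the 8 cultures alone, no rDNA or mitochondrial features, a replicate block and leaving out each culture. The values of 1 gene are not reported here.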

Additional observations from a re-analysis of the deposited data

How the results depend on the processing

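The difference of responses was called for 516 genes with RLE scaling and 516 with no filter on low counts. Fitting the 8 cultures alone gave 194, DESeq2 795 and leaving out rDNA and mitochondrial features 503. Calls were split 288 higher to 228 lower with RLE, 122 to 72 with the 8 cultures alone and 461 to 334 with DESeq2, beside 259 to 267; RLE moved the median gene to 0.04. MTX against CM gave 881 with the 8 cultures alone, and AD against CA 20 with the 8 cultures alone and 428 with DESeq2. CM against CA gave 1 with DESeq2. Leaving out 1 culture gave 149 to 708 genes for the difference, 513 to 1375 for MTX against CM, 10 to 243 for AD against CA and 0 to 4 for CM against CA. With a replicate block the counts were 1277 for the difference, 2056 for MTX against CM and 892 for AD against CA. The culture differences correlated at 0.709 between CA and AD and -0.237 between CM and MTX; with 2 pairs the numbers were not taken as pairing the cultures. A crossed replicate block, chosen after seeing the data because of the negative value, gave 1533, 2278 and 1109. Under the block 14 of 20 stress genes and 8 of 14 trehalose genes were called higher. The cause of these shifts was not tested.

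Of 75 named genes called, 38 were called with any single culture left out and no called gene changed sign under any alternative. Fitting the 8 cultures alone ended 28 of the 75 calls, those of GUK1, MET1, MET2, LEU9, PTR2, BNA7, NMA2, PRE2, RPN3, ERG12, HCH1, AHP1, OYE2, PRI1, HO, DSE4, SMF3, SPL2, RPA190, RPL22A, BCY1, STB3, DOT6, MF(ALPHA)1, URA3, STF1, CRG1 and ATF2. Under it the pyrimidine list had 3 calls in place of 6, the sulfate list 1 in place of 5, the cell wall list 8 in place of 10 and the damage list 10 as before. DFR1, not called, changed sign to 0.04 without MTX culture 1, 0.23 without CM culture 1, 0.17 without AD culture 2 and 0.27 without CA culture 1, beside -0.455 without CA culture 2. Fewer cultures leave fewer degrees of freedom. The simulated design called 34.3% of the 2-fold changes, so a missed call does not show that a gene was unchanged.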
